A study of Mus musculus with 6 samples.

Results

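Circular RNAs (circRNAs) are closed RNA loops made when the splicing machinery joins the end of an exon back to the start of the same or an earlier exon. Those whose listed ends lie at least 50000 bp apart in the genome are described here. In a table of 3869 circRNAs of differentiating mouse brown preadipocytes, 218 (5.63%) met this rule, which used the distance between the ends and no expression value. Their span ran from 50211 to 191363 bp, with a median of 68625 bp, and 48 spanned 100 kb or more.

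The cells were the stromal vascular fraction of brown adipose tissue of 6-week-old C57BL/6 mice, cultured and then driven to form adipocytes. Day 0 cells had not been induced. Day 4 cells had been kept in induction medium with insulin, dexamethasone and 3-isobutyl-methylxanthine, and day 8 cells had then been moved to a differentiation medium of insulin and T3, a thyroid hormone. Each day had 2 libraries, made from total RNA after removal of ribosomal and linear RNA. The labels name the depot as inguinal BAT, an unusual name for a brown depot, and do not say whether the libraries of a day came from separate mice or cultures. All p-values therefore measure the spread between these libraries, which may be technical. Linear mRNA was not measured here, so markers of brown adipocytes were not checked against the labels.

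Back-splicing competes with ordinary splicing of the same transcript. It is known to be favoured where long introns flank the exons and can pair with each other. A circRNA usually keeps its exons and loses the introns between them, so the distance between its ends says little about the length of the molecule. Brown preadipocytes turn on the transcription factor PPARγ and the genes of fuel oxidation as they mature, and many circRNAs rise or fall with the transcription of their host gene or with changes in splicing.

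The values are CPM, counts scaled so that the listed circRNAs of a library sum to 1000000. Every value was a whole multiple of 1 step of 21.9 to 24.8 CPM, and the steps are given below as reads. The libraries held 40384 to 45733 such reads in all. The smallest non-zero value was 2 reads, so an entry of 0 may have been 1 read. The table lists a circRNA only if both libraries of some day were above 0, and this selection enlarges day differences at few reads. In these bulk samples, fewer cells of a type and less RNA per cell cannot be told apart.

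Host genes were named by matching exon spacing to GENCODE M21, as the table gives only coordinates on mm9. A single host was found for 194 of the 218 long circRNAs, in 121 genes, of which 118 code for protein. A further 16 circRNAs were named from 1 end that they shared with a circRNA of known host, 5 had their ends at exons of 2 different genes, and 3 stayed without a name. The back-splice junctions below are those of the members on which the results turn. Each shows the last 20 bases of the donor exon in lower case and the first 20 bases of the acceptor exon in capitals, 5′ to 3′. They were taken from the annotated transcripts at the matched exons and not from reads, and the coordinates are those of the table on mm9.

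The first 4 lie in Slc10a7, a membrane protein of the solute carrier 10 family, and show 1 acceptor exon used with different donor exons. Their regions are chr8:81039485-81102656, chr8:81039485-81186921, chr8:81039485-81222470 and chr8:81039485-81230847, all on the plus strand.
Slc10a7, exon 5 to exon 2: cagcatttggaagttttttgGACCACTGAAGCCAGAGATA
Slc10a7, exon 6 to exon 2: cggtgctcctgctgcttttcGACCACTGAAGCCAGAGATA
Slc10a7, exon 9 to exon 2: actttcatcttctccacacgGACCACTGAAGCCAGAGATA
Slc10a7, exon 10 to exon 2: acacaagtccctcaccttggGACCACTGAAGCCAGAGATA

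The next 7 belong to circRNAs that were called between days, 6 of them with 10 or more reads in 2 or more libraries and the Ghr circRNA of exons 2 to 7 with fewer. Pparg (chr6:115333697-115401100, plus strand) encodes PPARγ. Ghr (chr15:3277974-3408008 and chr15:3283347-3408008, minus strand) encodes the growth hormone receptor. Zbtb16 (chr9:48525388-48641204, minus strand) encodes a zinc finger transcription factor, Bckdhb (chr9:83846131-83906226, plus strand) a subunit of the branched-chain ketoacid dehydrogenase, Acss3 (chr10:106460710-106522007, minus strand) an acyl-CoA synthetase for short chains, and Med13l (chr5:119043342-119130980, plus strand) a subunit of the kinase module of Mediator.
Pparg, exon 5 to exon 2: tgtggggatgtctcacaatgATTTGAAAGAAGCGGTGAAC
Ghr, exon 8 to exon 2: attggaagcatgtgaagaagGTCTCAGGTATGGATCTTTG
Ghr, exon 7 to exon 2: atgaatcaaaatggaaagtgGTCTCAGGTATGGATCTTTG
Zbtb16, exon 4 to exon 2: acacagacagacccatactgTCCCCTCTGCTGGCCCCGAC
Bckdhb, exon 8 to exon 2: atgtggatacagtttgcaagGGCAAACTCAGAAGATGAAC
Acss3, exon 7 to exon 2: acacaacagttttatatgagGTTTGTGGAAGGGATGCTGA
Med13l, exon 4 to exon 2: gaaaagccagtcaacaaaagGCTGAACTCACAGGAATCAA

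All of these 11 circRNAs used exon 2 of their transcript as the acceptor. Those of Slc10a7 share the same acceptor, as do those of Ghr, and some other named members began at other exons. The printed junctions therefore do not give the share among the members. Among the 184 long circRNAs for which 1 annotated transcript held both exons, 96 (52.2%) began at exon 2. The share was 34.3% for circRNAs under 1 kb, 32.2% from 1 kb to under 10 kb and 38.4% from 10 kb to under 50 kb. The annotated start codon lay inside 46 of the 181 long circRNAs whose transcript had one (25.4%), and inside 14.1% to 19.1% in the 3 shorter classes. These shares were not tested, since members that share a host or an end are not independent.

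The long spans held little exon. A long circRNA contained a median of 4 annotated exons, with a middle range of 3 to 6 and extremes of 2 and 12. The summed exon length had a median of 486 bp, with a middle range of 374 to 670 bp. That was a median of 0.665% of the span. The median exon length of the shorter classes was 326 bp under 1 kb, 408 bp from 1 kb to under 10 kb and 514 bp from 10 kb to under 50 kb, so the class of 10 kb to under 50 kb lay above the long class. The span came mainly from 1 intron, since the largest inner intron had a median of 48127 bp and took a median of 64.3% of the span. That share was 46.9% under 1 kb, 63.4% from 1 kb to under 10 kb and 57.1% from 10 kb to under 50 kb. It was thus not particular to the long class.

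**Figure D1:**
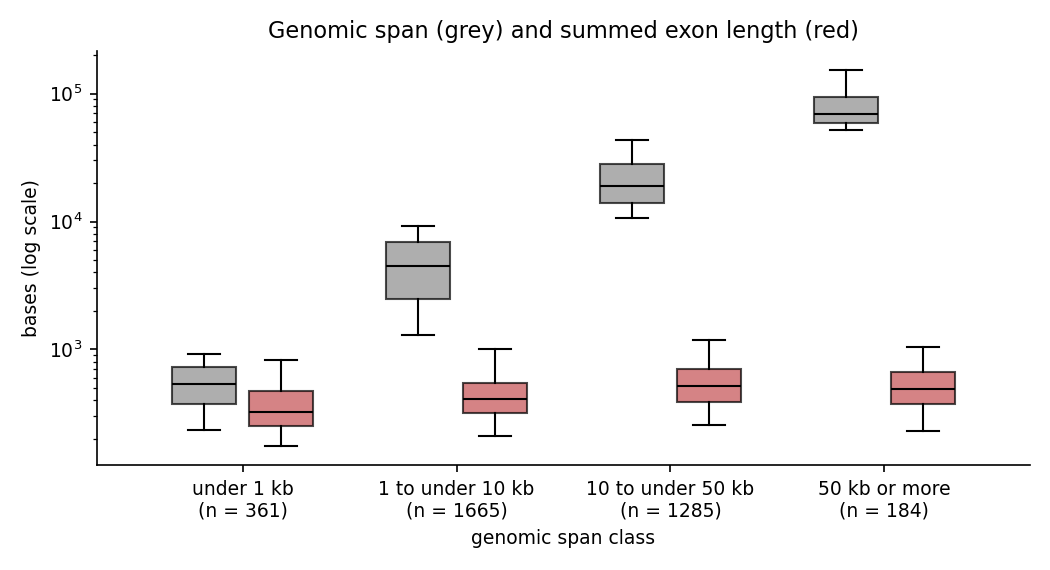
Genomic span (grey boxes) and summed length of the annotated exons between the ends (red boxes) of circRNAs with 1 transcript holding both exons, by span class, in bases on a log scale; the line is the median, the box the quartiles and the whiskers the 5th to 95th percentile. The spans rise from class to class, while the exon lengths have medians of 326, 408, 514 and 486 bp.

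The flanking introns were long as well. The intron before the acceptor exon had a median of 28484 bp and the intron after the donor exon one of 26808 bp. In the class of 10 kb to under 50 kb, the corresponding medians were 15716 and 12452 bp, and in the class under 1 kb they were 6364 and 5290 bp. The host genes of long circRNAs had a median span of 238131 bp, against 79112 bp for the 1818 genes that hosted shorter circRNAs only. A gene shorter than 50 kb cannot host a member, so part of this difference follows from the rule.

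The public circRNA catalogue circBase had an entry for 101 of the 218 long circRNAs (46.3%), per the table, and for 64.1% of the other 3651. A start or an end was shared with another listed circRNA by 185 long circRNAs (84.9%) and by 46.8% of the others. A total of 173 enclosed at least 1 other circRNA on their strand, and 1 of them enclosed 11. Of the 121 hosts, 104 were also named as the host of a listed circRNA under 50 kb and 17 were not. Some of the 17 still enclosed shorter circRNAs on their strand that had not been given that host. The long circRNA of Etv6 enclosed 2 and those of Atxn1 enclosed 1. Their abundance was similar to that of the whole table, with a median over members of 98.1 CPM against 103 CPM. All 6 libraries were above 0 for 52 of them (23.9%) and for 31.8% to 33.5% in the shorter classes.

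At the threshold, the shortest member was a circRNA of Dennd1b with 50211 bp (2, 0, 3, 0, 14 and 2 reads in the libraries of days 0, 4 and 8 in order). Just outside were circRNAs of Tenm3 with 49935 bp (11, 3, 12, 11, 7 and 4 reads) and of Rbms1 with 49784 bp (7, 4, 7, 0, 2 and 5 reads). All 3 had few reads, and libraries of the same day differed from each other.

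The first comparison asked how much of the circRNA pool the long circRNAs took up on each day. Their summed share of CPM was 3.56% and 3.42% in the day 0 libraries, 4.85% and 5.54% in the day 4 libraries and 4.83% and 4.62% in the day 8 libraries. Both libraries of days 4 and 8 lay above both libraries of day 0, while days 4 and 8 overlapped. The means were 3.49% ± 0.10 (SD, n = 2), 5.19% ± 0.49 (SD, n = 2) and 4.73% ± 0.14 (SD, n = 2). The 95% Wilson intervals of the libraries, which cover counting error only, reached from 3.25% to 3.74% over day 0, from 4.65% to 5.77% over day 4 and from 4.43% to 5.04% over day 8. No test is given, since 2 libraries a day are too few for an exact permutation p under 0.05. Circular RNAs of 10 kb to under 50 kb also had a higher share after day 0, with 31.9% ± 0.23 (SD, n = 2) at day 0, 36.8% ± 0.025 (SD, n = 2) at day 4 and 34.5% ± 0.017 (SD, n = 2) at day 8.

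The most abundant member alone, the Slc10a7 circRNA of 63172 bp, took 6.78% to 12.6% of the CPM of the members over the 6 libraries. Without it, the share of the other members was 3.32% and 3.12% at day 0, 4.24% and 4.98% at day 4 and 4.48% and 4.26% at day 8. The order of the day 0 libraries below the others was the same without it.

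Detection was lowest at day 0 as well and was highest at day 8. Of the 218 members, 114 and 130 were above 0 at day 0, 162 and 157 at day 4 and 170 and 171 at day 8. Over the whole table, 70.1% and 73.7% of the circRNAs were above 0 at day 0, 73.2% and 68.8% at day 4 and 76.7% and 78.1% at day 8. The members stood at 52.3% and 59.6% at day 0, below the table, and at 78.0% and 78.4% at day 8, near it. At day 0, 63 members (28.9%) were listed at 0 in both libraries, against 17.4% of all circRNAs. The corresponding shares at day 8 were 11.9% of members and 13.2% of all circRNAs.

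**Figure D2:**
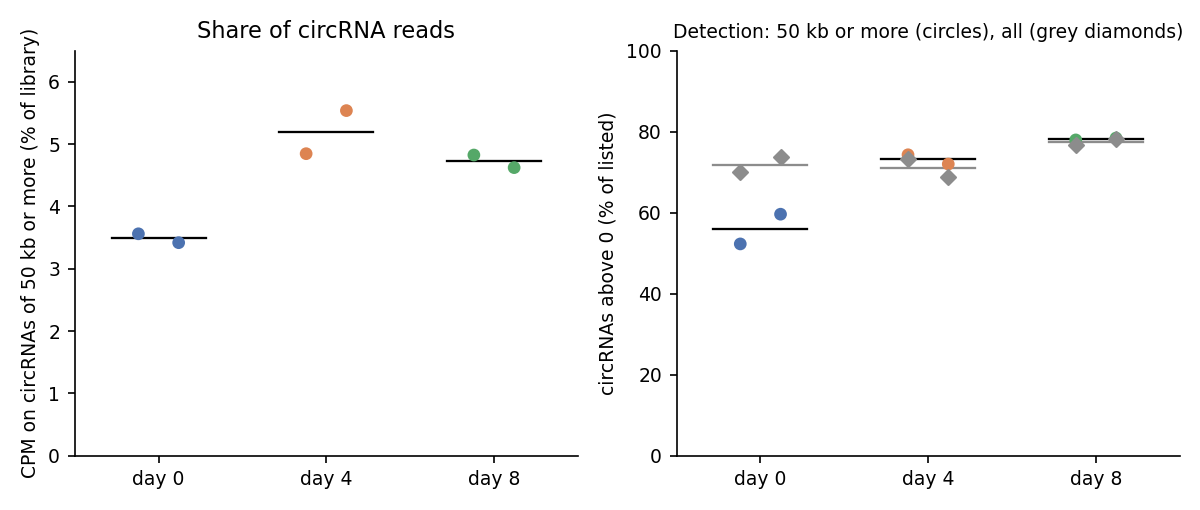
Left, share of the CPM of each library on circRNAs of 50 kb or more, in percent; right, percent of listed circRNAs above 0 in each library, for circRNAs of 50 kb or more (coloured circles) and for all circRNAs (grey diamonds). Each point is a library and each line the mean of the 2 libraries of a day; the long circRNAs hold 3.42% and 3.56% of CPM at day 0 and at least 4.62% in the other 4 libraries.

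The catalogued members held a smaller part of the members' CPM at day 8 than at day 0. Members with a circBase identifier held 63.9% and 60.4% of the members' CPM at day 0, 53.4% and 58.1% at day 4 and 51.4% and 51.9% at day 8. Among the shorter circRNAs, this share lay between 81.6% and 84.3% in all 6 libraries.

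The second set of comparisons tested each circRNA between days with limma over all 3869 circRNAs, on log2(CPM + 43.7) after scaling by trimmed means, with Benjamini-Hochberg adjustment. A circRNA is said to be called when its adjusted p is under 0.05. Between day 0 and day 4, 18 long circRNAs rose and 4 fell, 22 of 218 or 10.1%, while 8.22% of all circRNAs were called, 4.01% higher and 4.21% lower. Between day 0 and day 8, 30 rose and 5 fell, 16.1% of members against 12.4% of all circRNAs, of which 7.52% were higher and 4.86% lower. Between day 4 and day 8, 22 rose and 12 fell, 15.6% of members against 9.64% of all circRNAs, of which 6.1% were higher and 3.54% lower. Rises outnumbered falls among the members in each comparison, and over all circRNAs in the comparisons with day 8. A fit to only the 4 libraries of days 0 and 4 called 2 members instead of 22. The share of all circRNAs called in that fit is not given here, so this loss is not read as particular to the members. The comparisons share libraries, so their counts are not independent.

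Over all members, the median log2 fold change was 0.51 from day 0 to day 4 and 0.52 from day 0 to day 8, against 0.00 and 0.05 over all circRNAs. With members listed at 0 on 1 day set to the bound that 3 reads per library allow, the member medians were 0.25 and 0.24. At day 4, 141 of the 218 members stood higher and 56 lower than at day 0, and at day 8 it was 145 higher and 73 lower. Over all circRNAs, 1821 stood higher and 1836 lower at day 4, and 2010 higher and 1847 lower at day 8. Between days 4 and 8, 108 members were higher and 109 lower, against 2076 and 1738 of all circRNAs. Among the 72 members with 10 or more reads in 2 or more libraries, 27 had the higher mean log2 value at day 8 and 45 at day 4, with a median log2 fold change of -0.34, against 0.03 over the 1368 circRNAs with as many reads.

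Most of these calls came from members with few reads. One of the 2 days was listed at 0 in both libraries for 19 of the 22 calls between days 0 and 4, 31 of the 35 between days 0 and 8 and 33 of the 34 between days 4 and 8. Over all called circRNAs this held for 84.9%, 84.3% and 89.8%, near the 86.4%, 88.6% and 97.1% of the members. The median of the highest read number among such called members was 5 in each comparison. A circRNA of Spidr with 2 and 2 reads at day 4 and 0 elsewhere was called, with an adjusted p of 0.00146 (limma). Equal small values have little spread in this test and the table lists no circRNA without such a pair, so calls at this depth are given as detections on 1 day and not as measured changes.

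Results with a usable number of reads come from the 72 members (33.0%) with 10 or more reads in 2 or more libraries. The same filter kept 35.3% to 35.6% of the shorter classes and 1368 circRNAs in all, which were tested together again. Of the 72, 4 rose and none fell between days 0 and 4 (limma), where 3.51% of the circRNAs tested were called, 2.49% higher and 1.02% lower. Unadjusted, 24 of the 72 (33.3%) had a p under 0.05 in that comparison, against 20.0% of the 1368. Between days 0 and 8, 8 rose and 1 fell, where 6.58% of the circRNAs tested were called, 4.46% higher and 2.12% lower. Between days 4 and 8, 1 rose, where 1.02% were called, 0.731% higher and 0.292% lower. Leaving out any 1 of the 6 libraries removed the 4 calls between days 0 and 4. The 9 calls between days 0 and 8 became 1 and 2 without the first and the second library of day 0, and 1 without either library of day 8. The call between days 4 and 8 was lost without any library of day 0 or day 4. A member could pass this filter through the day on which it was high, and the counts are read with that in mind. The adjusted p-values printed below for single circRNAs are from the whole-table fit, also with libraries left out, unless stated. With enough reads, the called members had an adjusted p (limma) from 0.00683 (Zbtb16, day 8 against day 0) to 0.0402 (Bckdhb, day 4 against day 0). At day 4 against day 0 it was 0.0242 for Zbtb16 and 0.0282 for Slc10a7. At day 8 against day 0 it was 0.0184 for Bckdhb and for Cacna1c.

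Regulators of transcription come first. The Zbtb16 circRNA of 115817 bp, made of exons 2 to 4 with a summed length of 1542 bp, had 0 and 0 reads at day 0, 36 and 23 at day 4 and 67 and 37 at day 8. It was listed at 0 at day 0 and was above 0 in all 4 later libraries, at 678 ± 154 CPM (SD, n = 2) at day 4 and 1259 ± 541 CPM (SD, n = 2) at day 8. Folds against a day at 0, here and below, divide the mean of the higher day by a floor of 3 reads per library. They bound the day at 0 and not the spread between libraries of the higher day. The Zbtb16 mean was at least 9.54-fold higher at day 4 (limma adjusted p = 0.00329) and at least 17.7-fold higher at day 8 (adjusted p = 0.0016) than at day 0. The rise from day 0 to day 8 passed under each of the 13 alternatives fitted for this circRNA. Those that left out a library used the whole table. The rise to day 4 did not pass without the first library of day 0 or of day 4. The other circRNAs of Zbtb16 were also at 0 at day 0, and the shorter ones had 15 and 4 reads at day 4 and 14 and 22 at day 8.

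Pparg, the central transcription factor of fat cell formation, had 1 long circRNA, of exons 2 to 5 with 602 bp of exon in 67404 bp. It had 0 and 0 reads at day 0, 5 and 7 at day 4 and 14 and 16 at day 8. The days did not overlap. It was at least 5.08-fold higher at day 8 than at day 0 (limma adjusted p = 0.0199), and the values of day 4 did not pass (adjusted p = 0.115). The call was lost without either library of day 8 (adjusted p = 0.125 and 0.136). The 4 shorter circRNAs of Pparg had 10 and 9 reads in sum at day 0, 3 and 24 at day 4 and 26 and 24 at day 8, above 0 in all 6 libraries.

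Setbp1, which encodes a SET-binding nuclear protein, had a circRNA of exons 2 and 3 with a span of 163192 bp. Its reads were 0 and 0 at day 0, 15 and 14 at day 4 and 8 and 9 at day 8. It was at least 4.74-fold higher at day 4 (limma adjusted p = 0.023) and at least 2.88-fold higher at day 8 (adjusted p = 0.0374) than at day 0. Both calls were lost without either library of day 4 or of day 8, with adjusted p from 0.0689 to 0.167. Its shorter circRNA had 63 to 109 reads in each of the 6 libraries.

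The Med13l circRNA of 87639 bp, listed in circBase as mmu_circ_0012054, was seen on all days. It had 28 and 17 reads at day 0, 52 and 49 at day 4 and 65 and 50 at day 8. Both later days lay above day 0, and the log2 fold change from day 0 to day 8 was 1.43 ± 0.27 (SE), with an adjusted p of 0.0222 (limma). That of day 4 was 1.17 ± 0.27 (SE), with an adjusted p of 0.0625. Leaving out single libraries gave an adjusted p of 0.0429 to 0.16 for day 8, and it was under 0.05 only without the first library of day 0. The 2 shorter circRNAs of Med13l had 274 and 296 reads at day 0, 557 and 334 at day 4 and 578 and 566 at day 8.

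Next come a hormone receptor and enzymes of metabolism. Ghr had 6 long circRNAs, and the most abundant, of exons 2 to 8 with 820 bp of exon in 130035 bp, had 0 and 6 reads at day 0, 9 and 12 at day 4 and 40 and 45 at day 8. Both libraries of day 8 stood above those of both earlier days, and the difference between days 4 and 8 was not called. The log2 fold change from day 0 to day 8 was 3.61 ± 0.71 (SE, limma adjusted p = 0.0248). It did not pass without either library of day 4 or of day 8 (adjusted p from 0.0904 to 0.222), and with a pseudocount of 1 CPM the adjusted p was 0.186. A second Ghr circRNA, of exons 2 to 7, had 9 and 9 reads at day 8 and 0 in the other 4 libraries, a detection on 1 day with too few reads for a measured change.

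Bckdhb, of branched-chain amino acid breakdown, had a long circRNA of exons 2 to 8 listed as mmu_circ_0015953. It had 0 and 0 reads at day 0, 17 and 12 at day 4 and 25 and 15 at day 8. It was at least 4.7-fold higher at day 4 (limma adjusted p = 0.0167) and at least 6.8-fold higher at day 8 (adjusted p = 0.00665) than at day 0. In the whole-table fit, the call at day 4 was lost without any 1 of the 6 libraries. That at day 8 was lost there without the first library of day 8. With enough reads, few of the calls at day 8 were left without a library of day 0 or day 8, as given above. The 3 shorter circRNAs of Bckdhb were present at day 0 with 56 and 53 reads and reached 127 and 106 reads at day 4 and 287 and 250 at day 8.

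The Acss3 circRNA of exons 2 to 7 had 0 and 0 reads at day 0, 2 and 0 at day 4 and 24 and 20 at day 8. Nearly all its reads were in the day 8 libraries, and it was at least 7.46-fold higher there than at day 0 (limma adjusted p = 0.0199). The call was lost without either library of day 0 or of day 8 (adjusted p from 0.0541 to 0.103) and with a pseudocount of 1 CPM (adjusted p = 0.0863). The difference between days 4 and 8 passed in the whole table (adjusted p = 0.0442) and not among the circRNAs with enough reads (0.0642). The 5 shorter circRNAs of Acss3 had 0 reads at day 0, 25 and 16 at day 4 and 204 and 169 at day 8.

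A circRNA of a membrane protein rose to day 4, and another fell to day 8. The Slc10a7 circRNA of exons 2 to 5 was the most abundant member, with 104 and 122 reads at day 0, 280 and 226 at day 4 and 141 and 152 at day 8. Day 4 lay above both other days. Its level was 2684 ± 383 CPM (SD, n = 2) at day 0 and 5859 ± 372 CPM (SD, n = 2) at day 4, a log2 fold change of 1.18 ± 0.19 (SE, limma adjusted p = 0.0147). The call was lost without any 1 of the 6 libraries (adjusted p from 0.0576 to 0.11). The fall from day 4 to day 8 had a log2 fold change of -0.68 ± 0.19 (SE) and did not pass (adjusted p = 0.0937).

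Cacna1c encodes the pore subunit of a voltage-gated calcium channel. Of its 2 long circRNAs, the one called (chr6:118952595-119007533, minus strand, mmu_circ_0012993) was named from 1 shared end. It had 136 and 107 reads at day 0, 53 and 70 at day 4 and 39 and 33 at day 8. The days did not overlap, and the level fell from 2873 ± 399 CPM (SD, n = 2) at day 0 to 869 ± 123 CPM (SD, n = 2) at day 8. The log2 fold change was -1.58 ± 0.24 (SE, limma adjusted p = 0.00864), and without either library of day 0 or of day 8 the adjusted p was 0.0676 to 0.102. It was the only fall called among the members with 10 or more reads in 2 or more libraries. The 2 long circRNAs of Cacna1c together had 217 and 152 reads at day 0, 53 and 114 at day 4 and 61 and 50 at day 8. In sum, days 4 and 8 overlapped.

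**Figure D3:**
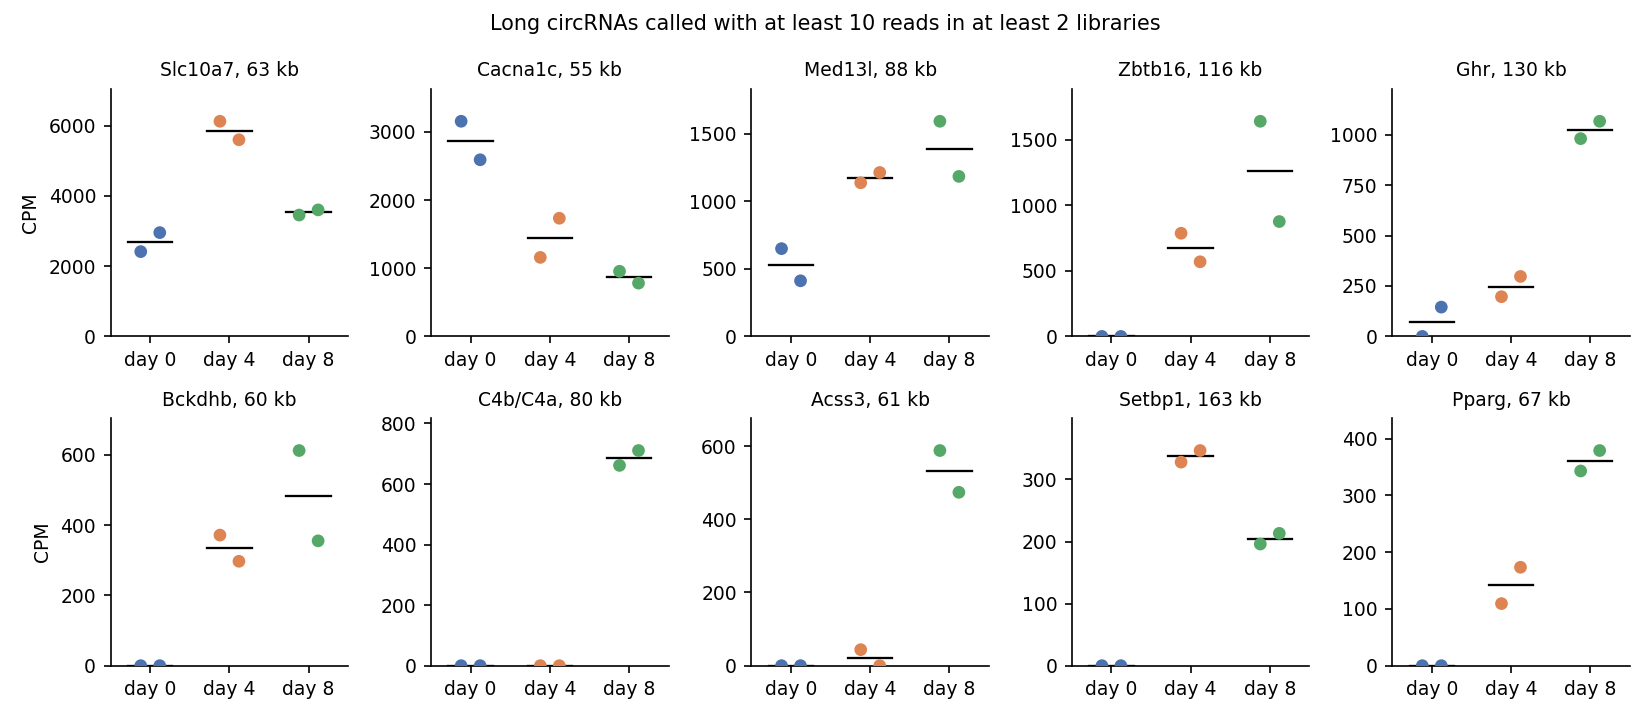
CPM of the 10 long circRNAs that were called among those with 10 or more reads in 2 or more libraries; each point is a library, each line the mean of the 2 libraries of a day, and each panel has its own axis from 0. Cacna1c falls from 2873 to 869 CPM, Slc10a7 is highest at day 4, and 6 of the 10 are listed at 0 in both day 0 libraries.

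Other members were called in the whole table and not in the test of those with enough reads. The Nfia circRNA of 85306 bp, from a gene for a transcription factor of the nuclear factor I family, had 0 and 4 reads at day 0, 24 and 27 at day 4 and 13 and 9 at day 8. The difference between days 0 and 4 passed in the whole table (limma adjusted p = 0.0459) and not with enough reads (0.064). The Csgalnact1 circRNA of 73696 bp, from a gene for an enzyme of chondroitin sulfate synthesis, had 4 and 3 reads at day 0, 20 and 26 at day 4 and 19 and 12 at day 8. Its adjusted p at day 4 was 0.0249 in the whole table and 0.0615 with enough reads. Both stood higher in the day 4 libraries than in those of day 0, and both calls depended on single libraries. That of Csgalnact1 was lost without any 1 of the 6 libraries (adjusted p from 0.0508 to 0.137). That of Nfia was lost without any 1 library except the second of day 0, and with a pseudocount of 1 or 0.1 CPM (adjusted p = 0.218 and 0.332).

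Of the members with the largest changes by the naming rule, the rest had at most 10 reads in any library. Those of Bcas3 (8 and 5 reads), Cdk14 (7 and 5), Pknox2 (5 and 5), Cblb (5 and 4) and the Foxp1 circRNAs of 60622 bp (7 and 2) and 147606 bp (3 and 4) were seen at day 4 and listed at 0 on the other days. Those of Mbd5 (10 and 6 reads), Nfib (8 and 3) and Ssbp2 (5 and 5) were seen at day 8 only. Those of Phkb (7 and 5 reads), Samd4 (5 and 5), Eri3 (3 and 8) and R3hdm2 (4 and 3) were seen at day 0 only. Pknox2, Nfib and Foxp1 encode transcription factors, Cblb a ubiquitin ligase, and Phkb a regulatory subunit of phosphorylase kinase. All were called by limma in the whole table. Leaving out 1 library removed calls of Bcas3, Mbd5, Nfib, Eri3 and the Foxp1 circRNA of 60622 bp.

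The other abundant members did not pass in any comparison. Tmem164 (82354 bp) had 73 and 41 reads at day 0, 85 and 117 at day 4 and 61 and 69 at day 8. Zmiz1 (79019 bp), from a gene for a transcriptional coregulator, had 48 and 60, 76 and 76, and 88 and 59 reads in the same order. Pcdh19, from a protocadherin gene, had 71 and 25, 13 and 33, and 41 and 49 reads, with libraries of 1 day further apart than the day means. Fndc3b had 29 and 37, 49 and 57, and 31 and 30 reads, with both day 4 libraries above the others. The Atxn1 circRNA of 161067 bp had 33 and 41, 32 and 32, and 48 and 39 reads.

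By groups of host genes, 18 members lay in 6 of 20 listed genes of adipocyte and fuel metabolism (Acss3, Bckdhb, Gbe1, Ghr, Phkb and Pparg). Between days 0 and 8, 10 of them rose and 1 fell, with a median log2 fold change of 1.60. Over all circRNAs 7.52% rose and the median was 0.05. Only 5 of the 18 had 10 or more reads in 2 or more libraries, and 4 were called in the test of those. The other calls rest on few reads. Between days 0 and 4, 1 rose and 1 fell. The share of these 18 members in CPM was 0.0534% and 0.0654% at day 0, 0.125% and 0.134% at day 4 and 0.419% and 0.436% at day 8. Of these rises, 4 were in Ghr and are not independent of each other.

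For transcription and chromatin, 16 members lay in 7 of 22 listed genes (Arid1b, Ebf1, Foxp1, Nfia, Nfib, Setbp1 and Zbtb16). Between days 0 and 4, 5 rose and none fell, with a median log2 fold change of 1.49, where 4.01% of all circRNAs rose and the median of all was 0.00. Between days 0 and 8, 3 rose and none fell, where 7.52% of all rose. Of the 16, 6 had enough reads, and 2 were called with enough reads in each of these comparisons. Only 3 members lay in the 20 listed genes of matrix, adhesion and cytoskeleton, and none was called in any comparison. Of 5 members in genes of channels, receptors and signalling, 1 rose (Prkce, with 4 and 4 reads at day 8) and 1 fell (Cacna1c) between days 0 and 8. Of 8 members in genes of RNA binding and decay, 2 rose and 1 fell between days 0 and 8. Over all circRNAs 7.52% rose and 4.86% fell. None of these 8 was called with enough reads. These lists were drawn up with earlier results of the same data known, so their counts are a description and not independent evidence of a direction.

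The members fell into 136 loci of overlapping circRNAs, of which 93 held 1 member and 8 held at least 4. The Slc10a7 locus was the fullest, with 9 long circRNAs that used only 2 acceptor ends, exon 2 in 6 of them and exon 3 in the others, joined to 6 donor ends. It also held the longest member, of exons 2 to 10 over 191363 bp with 747 bp of exon, which had 33 and 13 reads at day 0, 74 and 55 at day 4 and 45 and 41 at day 8. None of the 9 had a circBase identifier. The summed level was 4369 ± 220 CPM (SD, n = 2) at day 0, 9969 ± 652 CPM (SD, n = 2) at day 4 and 6043 ± 265 CPM (SD, n = 2) at day 8, with no overlap between days. The 3 shorter circRNAs inside the locus had 152 and 12 reads at day 0, 157 and 167 at day 4 and 62 and 90 at day 8. The 2 libraries of day 0 were far apart in these shorter circRNAs. They were close together in the sum of the 9 long ones, with 195 and 174 reads. Within that sum, the most abundant member had 104 and 122 reads at day 0. The longest had 33 and 13, and the circRNA of exons 2 to 6 had 40 and 13, so single long circRNAs of the locus also differed.

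Its other members were less abundant. The circRNA of exons 2 to 6 had 40 and 13, 71 and 43, and 35 and 26 reads, with its highest mean at day 4. The circRNA of exons 2 to 9 had 8 and 5, 0 and 23, and 8 and 18 reads, with the libraries of day 4 far apart. Neither passed in any comparison. Both share the acceptor printed above and are told apart by the bases before the junction. The next in length, of exons 3 to 10 over 181787 bp, had 0 and 0, 4 and 9, and 5 and 2 reads, and a Cdk14 circRNA of 178212 bp, from a gene for a cyclin-dependent kinase, had 7 and 14, 0 and 8, and 5 and 5 reads. Neither of these was called.

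In the Ghr locus, 6 long circRNAs summed to 4 and 10 reads at day 0, 13 and 12 at day 4 and 66 and 86 at day 8. Of the 6, 4 used 1 acceptor end, exon 2, with different donors. The 6 enclosed shorter circRNAs had 5 and 11 reads at day 0, 2 and 4 at day 4 and 30 and 25 at day 8, so at day 8 the long circRNAs held more reads than the shorter ones in both libraries. At day 0 the long and shorter ones were alike.

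The Bckdhb locus was the opposite, with its shorter circRNAs above the long ones in every library. Its 5 long circRNAs summed to 3 and 4 reads at day 0, 24 and 24 at day 4 and 45 and 30 at day 8, and the 4 enclosed shorter ones to 65 and 56, 127 and 109, and 298 and 261 reads. Both sets were lowest at day 0 and highest at day 8. The Phkb locus had 16 and 13, 13 and 11, and 20 and 27 reads in 4 long circRNAs, against 66 and 73, 147 and 163, and 119 and 154 reads in 5 shorter ones.

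Foxp1 encodes a forkhead transcription factor. Its 6 long circRNAs summed to 6 and 7 reads at day 0, 21 and 32 at day 4 and 11 and 8 at day 8, highest at day 4, and none had 10 or more reads in 2 or more libraries. The 175001 bp member of Foxp1 had 2 and 13 reads at day 4 and 0 elsewhere, and it did not pass (limma adjusted p = 0.124 between days 0 and 4). The 3 enclosed shorter circRNAs had 69 and 47 reads at day 0, 62 and 23 at day 4 and 50 and 52 at day 8.

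Rere, which encodes a nuclear corepressor, had 6 long circRNAs, of which 5 were in circBase. They summed to 66 and 64 reads at day 0, 104 and 96 at day 4 and 51 and 72 at day 8. Atxn1, the ataxin-1 gene, had 5 long circRNAs with 91 and 72, 40 and 58, and 78 and 91 reads, lowest at day 4. Fndc3b had 4 with 35 and 41, 64 and 62, and 34 and 39 reads, highest at day 4. The 3 loci thus had day 4 apart from days 0 and 8 in both libraries, in different directions, and no test was made on these sums.

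**Figure D4:**
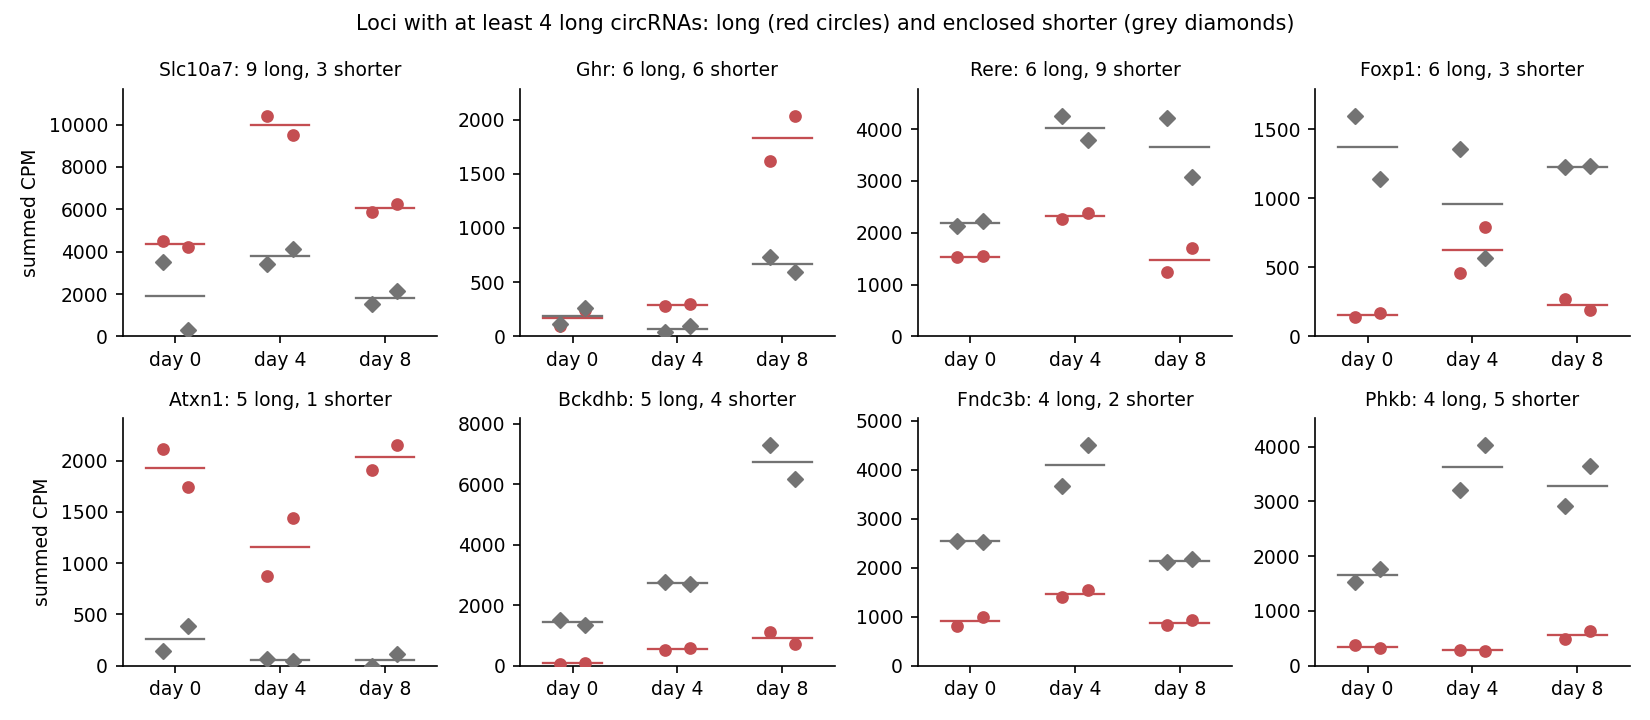
Summed CPM of the long circRNAs (red circles) and of the shorter circRNAs they enclose on the same strand (grey diamonds) in the 8 loci with at least 4 long circRNAs; each point is a library, each line the mean of the 2 libraries of a day, and each panel has its own axis from 0. Long circRNAs lie above the shorter ones in every library for Slc10a7 and Atxn1, and below them in every library for Rere, Bckdhb, Fndc3b and Phkb.

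For 5 members the ends lay at exons of 2 different genes, each time neighbouring and related genes on the same strand. A pair joined Scd2 to Scd3, genes of stearoyl-CoA desaturases, both in circBase (mmu_circ_0007814 at chr19:44310261-44372660 and mmu_circ_0007815 at chr19:44316150-44375934, plus strand). Another pair joined C4b to C4a, genes of complement component C4 (chr17:34872349-34952518 and chr17:34877212-34956589, minus strand). The fifth joined H2-T22, a class I gene of the major histocompatibility complex, to H2-T-ps, an annotated pseudogene (chr17:36178394-36247080, minus strand). The junctions of these 5 are printed because they show how alike the gene copies are.
Scd2 exon 3 to Scd3 exon 4: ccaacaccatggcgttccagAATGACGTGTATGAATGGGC
Scd2 exon 5 to Scd3 exon 6: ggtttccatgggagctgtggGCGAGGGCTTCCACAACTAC
C4b exon 21 to C4a exon 22: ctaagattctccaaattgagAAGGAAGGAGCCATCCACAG
C4b exon 11 to C4a exon 12: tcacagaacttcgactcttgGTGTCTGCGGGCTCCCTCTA
H2-T22 exon 3 to H2-T-ps exon 4: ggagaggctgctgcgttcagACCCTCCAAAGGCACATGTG

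In all 5 the acceptor was the exon that follows the donor exon in the numbering of the related gene. Each of these 40-base junctions was identical to the linear junction between consecutive exons of the donor gene, with 0 differences in the 20 bases after the junction. Over the first 100 bases of the acceptor exon, or 52 for the shortest exon, there were 1 to 4 differences. The same search found none of the 184 junctions of single-host members in any of the 141767 annotated transcripts. Among circRNAs under 50 kb, 4 had ends in 2 genes and 3 of their junctions stood in a linear transcript, as did 1 junction of a circRNA with a single host. A read of the 40 bases cannot tell such a back-splice from the linear transcript of the donor gene. The junctions of C4b exon 21 to C4a exon 22 and of Scd2 exon 3 to Scd3 exon 4 were also identical to a linear junction of the acceptor gene. Whether these 5 are circles was not tested, and the libraries had been depleted of linear RNA.

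The C4b exon 21 to C4a exon 22 member was called with enough reads, with 0 reads in the 4 libraries of days 0 and 4 and 27 and 30 at day 8. It was at least 9.65-fold higher at day 8 than at day 0 and at least 9.81-fold higher than at day 4. With enough reads, limma gave an adjusted p of 0.00883 against day 0 and 0.0331 against day 4. In the whole table these calls had an adjusted p of 0.0086 and 0.00968. The first of these was lost without the second library of day 0 (adjusted p = 0.0509) and the second without either library of day 4 (0.0509 and 0.0529). It was the 1 member with enough reads that was called between days 4 and 8. The other C4b member had 5 and 0 reads at day 0, 0 and 0 at day 4 and 23 and 13 at day 8.

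The Scd2 exon 5 to Scd3 exon 6 member had 0 and 10 reads at day 0, 27 and 28 at day 4 and 22 and 0 at day 8. The Scd2 exon 3 to Scd3 exon 4 member had 0 and 5, 12 and 28, and 25 and 0 reads. Both were at 0 in the second library of day 8 and well above it in the first, and neither passed in any comparison. The H2-T22 member had 0 and 3, 0 and 0, and 4 and 6 reads. In sum the 5 had 5 and 18 reads at day 0, 39 and 56 at day 4 and 101 and 49 at day 8, and without them the share of the members in CPM at day 8 was 4.54% ± 0.05 (SD, n = 2).

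**Figure D5:**
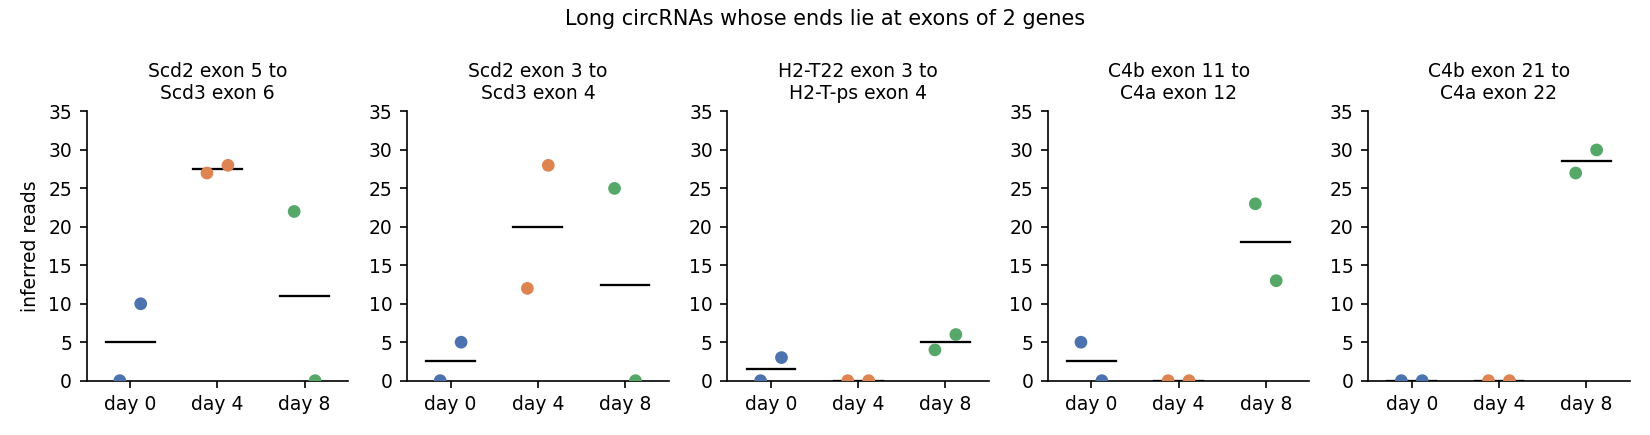
Inferred reads per library of the 5 long circRNAs with ends at exons of 2 genes; each point is a library and each line the mean of the 2 libraries of a day, on a common axis. The C4b exon 21 to C4a exon 22 member has 27 and 30 reads at day 8 and 0 elsewhere, and both Scd2 to Scd3 members have 0 in 1 library of day 8.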

How the data were processed

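Per the submitters' processing notes, reads were processed with FastQC 0.11.9 and HISAT2 2.2.0 on mm9. No source used here names the circRNA caller. The authors deposited CPM per library for 3869 circRNAs, and each column sums to 1000000 over them. Reads were inferred as whole multiples of the smallest step (largest deviation 2.52e-07 of a step). No count model was run, since the steps start at 2.

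Members were chosen by span (end minus start of 50000 bp or more). CPM values were scaled by trimmed means of M-values and fitted with limma 3.58.1 (R 4.3.3, trend option) on log2(CPM + 43.7), for all 6 libraries and 3869 circRNAs. The pseudocount is the smallest non-zero CPM, and fold changes on this scale understate changes of low circRNAs. Called means a Benjamini-Hochberg adjusted p under 0.05. A fold against a day at 0 divides the mean of the other day by a floor of 3 reads per library. It does not take in the spread between the libraries of that other day. The procedure was tested on simulated reads in which only circRNAs with more reads were changed, without the selection by which the table lists a circRNA. That test does not cover the calls at few reads.

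No annotation of mm9 was used. Genes were named from GENCODE M21 (GRCm38), with no coordinate converted. A host had to be the 1 gene on the same chromosome and strand with an exon start and end at exactly the listed distance, and the offset between builds had to recur within 1000 bp in a neighbouring circRNA. This second criterion, the naming from 1 shared end and the search for 2 genes were added after the first matches were seen. With spans lengthened by 1, 2, 5, 7, 10 or 20 bases, 1, 3, 2, 0, 0 and 0 of 218 were named. Exon contents assume that the circRNA keeps all annotated exons of 1 transcript.

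Named circRNAs are, per comparison, the 6 largest changes in each direction among called members whose days do not overlap, all calls with 10 or more reads in 2 or more libraries, the 10 most abundant, the 5 longest, the 2 on each side of the threshold and the loci with at least 4 members. Spidr, Prkce and the other members of these loci were named after their values were seen. A circRNA that the rule names is not reported here. The members and gene lists were chosen with earlier results of these data known. Alternatives were other scalings, pseudocounts, filters, spans, samples, a replicate block and leaving out each library.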

Additional observations from a re-analysis of the deposited data

How the results depend on the processing

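The counts of called members were 22, 35 and 34 for days 4 against 0, 8 against 0 and 8 against 4, and the following settings moved them by more than 1.5 times (limma, adjusted p under 0.05). With 10 or more reads in 2 or more libraries they were 4, 9 and 1. With a span of 100 kb or more they were 6, 12 and 11 of 48 circRNAs, and with 40 kb or more 39, 54 and 54 of 329. These counts are read against 48 and 329 and not against 22, 35 and 34 of 218. In the main fit, 8.22%, 12.4% and 9.64% of all circRNAs were called. With only the 4 libraries of days 0 and 4 in the fit, days 4 against 0 gave 2. With the stricter filter and each library left out in turn (a lone library is assumed to vary like the others), they ranged from 0 to 0, 1 to 8 and 0 to 1. With that filter and only the 4 libraries of the 2 days, days 4 against 0 and 8 against 4 gave 0. Of the members, 19 and 18 had an unadjusted p under 0.05 there. Shares over all circRNAs are not given for the fits with fewer libraries. With the filter and without the 5 members in 2 genes, days 8 against 4 gave 0. In the fit of all 6 libraries, 15 of the 72 (20.8%) had an unadjusted p under 0.05 in that comparison, against 16.2% of the 1368. The share of CPM at days 0, 4 and 8 was 0.59%, 0.945% and 1.09% for 100 kb or more, 4.93%, 7.64% and 6.62% for 40 kb or more, and 3.22%, 4.61% and 4.37% without the most abundant member. At day 8 it was 4.27% with the stricter filter and 4.54% without the 5 members in 2 genes. Day 0 had the lowest share in each of these settings in which all days were computed. Of 46 calls of named members, 10 passed under every setting fitted for them. Only that of Zbtb16 at day 8 against day 0 had enough reads for the stricter filter. The others of these 10 had too few reads to be put to it. A total of 36 calls were lost under at least 1 setting, most of them with a library left out, and none reversed. The replicate block gave 22, 32 and 33 calls. Same-numbered libraries did not deviate together (correlations of -0.0136, -0.0067 and -0.0071), so they share only a number. Without scaling and with median-of-ratios factors the counts were again 22, 35 and 34, and these scalings had been compared over the whole table before the trimmed means were kept. The settings that leave out the 5 members or the most abundant member, and those that combine the stricter filter with fewer libraries, were chosen after seeing the data. A count model on the inferred reads had been planned and was not run, since the values lack single reads. Listed reads, and not the sequencing depth, which is unknown, limit what can be seen, and a listed 0 may be 1 read.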
